A study of Homo sapiens with 17 samples.

Results

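Noggin (NOG), ID2 and the inhibin beta A subunit gene INHBA are 3 genes of BMP and activin signalling that appear in tables of genes lowered in PC3 cells by short hairpin RNAs (shRNAs) against MED25 or ETV4. PC3 is an established human prostate cancer cell line. MED25 belongs to the Mediator complex, which links transcription factors to RNA polymerase II, and ETV4 is such a factor, of the ETS family. The members were taken by symbol from the 4 tables, and are 3 of the 1400 genes in their union. They were chosen by their listing, that is by the decreases and scores given here, so those values are a description and were not tested.

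Early passage PC3 cells carried a lentiviral MED25 shRNA A or B (3 libraries each), set against a lentiviral luciferase shRNA (3 libraries), or a retroviral ETV4 shRNA A or B (3 libraries each), set against a retroviral control shRNA (2 libraries). The series design text calls the controls empty vector, which differs from the treatment labels. Cells of every group, controls included, were infected with a virus and harvested 7 days later. The 2 tables of a target rest on common control libraries and are not independent. Target, virus and control libraries change together between the MED25 and ETV4 tables. Differences between the targets therefore cannot be told apart from differences of virus or control. Whether replicates came from separate cultures is not stated in the labels.

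Each table is the authors' own comparison and lists genes by Ensembl identifier and symbol, with a log2 ratio and an adjusted p given as a score of unstated scale. All ratios here are knockdown over control, a direction read from the library numbers in the headers and the sign of the targeted gene. In that reading every listed gene was lower in the knockdown, by at least 1.5-fold. No gene higher in a knockdown was analysed here, and one that is not listed cannot be called unchanged. Values per library were not analysed here, so depth and replicate spread are unknown and ratios carry no error. The tables hold no expression levels against which the PC3 identity could be checked. A lower ratio in bulk RNA cannot tell fewer expressing cells from less RNA per cell.

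BMPs and activins are secreted dimers of the TGF-beta superfamily that bring together type I and type II serine/threonine kinase receptors. BMP receptors act mainly through SMAD1, SMAD5 and SMAD9, activin receptors through SMAD2 and SMAD3, and both need SMAD4. Noggin binds BMPs outside the cell and blocks receptor contact. Its gene is often itself induced by BMPs, as part of a feedback loop. INHBA encodes the subunit that forms activin A as a homodimer and inhibin A with the alpha subunit. ID2 is a helix-loop-helix protein with no DNA-binding region. It sequesters E proteins such as TCF3, and ID genes are classic BMP targets.

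NOG was listed with all 4 shRNAs, INHBA with 3 and ID2 with 2. MED25 shRNA A was the comparison in which all 3 were listed. The 2 members listed with MED25 shRNA B were NOG and ID2, and the 2 with each ETV4 shRNA were NOG and INHBA. For scale, if 12000 genes could have been listed, a number that is assumed here, the MED25 tables held 6.55% (shRNA A) and 3.12% (shRNA B) of genes, and those of ETV4 4.12% (shRNA A) and 0.817% (shRNA B). Nothing is read from the members' count against these shares, since listing chose the members.

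**Figure D1:**
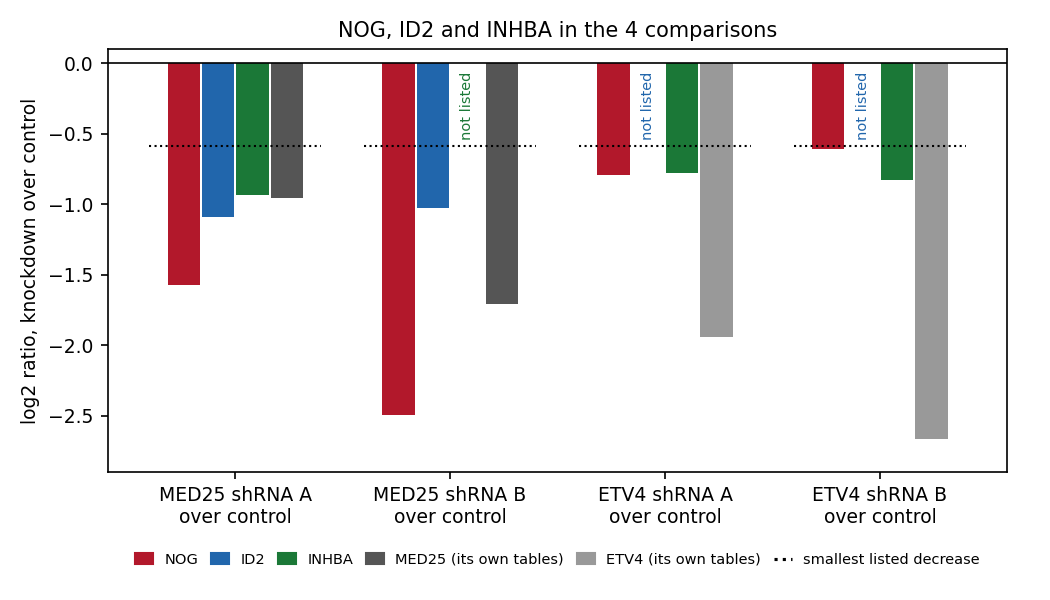
Bars give the log2 ratio of knockdown over control for NOG, ID2, INHBA and the targeted gene in each of the 4 authors' deposited tables; dotted lines mark the smallest decrease listed in the table. NOG runs from −2.50 with MED25 shRNA B to −0.61 with ETV4 shRNA B, while the INHBA bars lie between −0.93 and −0.78 and the ID2 bars at −1.09 and −1.03.

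NOG (ENSG00000183691, chromosome 17), the BMP antagonist, was lowered most with the MED25 shRNAs. NOG stood at −1.57, or 33.6% of control, in the authors' deposited table for MED25 shRNA A. With MED25 shRNA B it was at −2.50 in the authors' deposited table, or 17.7% of control, a 5.65-fold decrease. This was the lowest ratio of all 374 genes of that table, below MED25 itself at −1.71, and with shRNA A NOG ranked number 21 of 786. With the ETV4 shRNAs, which also differ in virus and control, the NOG decrease was smaller. The authors' deposited table for ETV4 shRNA A had NOG at −0.79, or 57.8% of control, and the authors' deposited table for ETV4 shRNA B had it at −0.61, or 65.7% of control. These values ranked number 246 of 495 and number 90 of 98, near the middle and near the end of their tables. The value with ETV4 shRNA B lay close to the smallest decrease listed there, −0.59, and its score ranked number 72 of 98.

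Set beside the loss of the targeted transcript, the order of the NOG ratios was the same for MED25 and the reverse for ETV4. In the authors' deposited tables MED25 was at 30.5% of control with shRNA B and 51.6% with shRNA A, and NOG was lower with B than with A, with a difference (B minus A) of −0.92 on the log2 scale. ETV4 was at 15.8% of control with shRNA B and 26.1% with A in the authors' deposited tables, yet NOG was less lowered with B, with a difference (B minus A) of 0.18. With 2 shRNAs per target sharing controls, and no spread between libraries, neither difference was tested.

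NOG was among 10 genes listed in all 4 tables. Within these 10, its ratio was the lowest with MED25 shRNA B and the sixth lowest with MED25 shRNA A. In the ETV4 tables it was number 9 of the 10 with shRNA A and number 10 with shRNA B. By Euclidean distance of the log2 ratios over the 4 tables, the gene with the pattern most like NOG was SDC1, which encodes the heparan sulfate proteoglycan syndecan-1 (distance 0.87), and it differed most from NOG with MED25 shRNA B, where the authors' deposited table had SDC1 at −1.73. RASL11A (distance 1.22), ANK2 (1.25), HEY1 (1.29) and KCNK15 (1.70) followed, out of 9 candidates listed in the same tables. With MED25 shRNA B, where NOG was at −2.50, the lowest of the candidates was IGF2BP1 at −1.88 in the authors' deposited table. Tables of a target share controls, so these distances are a description only.

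Next to NOG on chromosome 17, protein-coding genes on one side were also listed, in 1 of the 4 tables. The tables of MED25 shRNA A, ETV4 shRNA A and ETV4 shRNA B held NOG alone from this stretch. In the authors' deposited table for MED25 shRNA B, C17orf67 (ENSG00000214226) was at −0.99, or 50.5% of control. DGKE (ENSG00000153933), which encodes a diacylglycerol kinase, was at −0.93 in the authors' deposited table, or 52.6% of control. TRIM25 (ENSG00000121060), a ubiquitin ligase of the antiviral RIG-I pathway, was at −0.67 in the authors' deposited table, or 62.6% of control. In this 1 table the ratio of NOG was the lowest of the stretch, and those of C17orf67 and DGKE nearly coincided. The ratios carry no error, and a trend along the chromosome was not tested. ANKFN1, PCTP and TMEM100 on the other side of NOG, and COIL beyond TRIM25, were not listed. TRIM25 was named after its listing was seen, as it comes within 3 genes of NOG when protein-coding genes alone are ordered.

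Runs of neighbouring listed genes were then counted in every table, as a description and with no test. When the 19969 protein-coding genes of GENCODE release 29 were ordered along each chromosome, 322 were in the table of MED25 shRNA B and the run from NOG to TRIM25 was the one run of 4 or more genes. The other run of at least 3 in that table was STX1A, ABHD11 and CLDN3. NOG was chosen by its listing, and without it the first run has 3 genes, as many as the other. Ordering protein-coding genes alone was also chosen after the data were seen. MED25 shRNA A had 3 runs of 3 genes among 688 listed coding genes, ETV4 shRNA A had 2 runs, of which 1 had 4 genes, among 432, and ETV4 shRNA B had 0 among 91. In that annotation C17orf67, DGKE and TRIM25 all overlap one another, DGKE on the strand opposite to the other two. No source used here states how reads in overlapping genes were counted or whether strand was used, so these 3 values may share reads and are not independent, and neither is the length of the run. NOG overlaps no annotated gene.

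**Figure D2:**
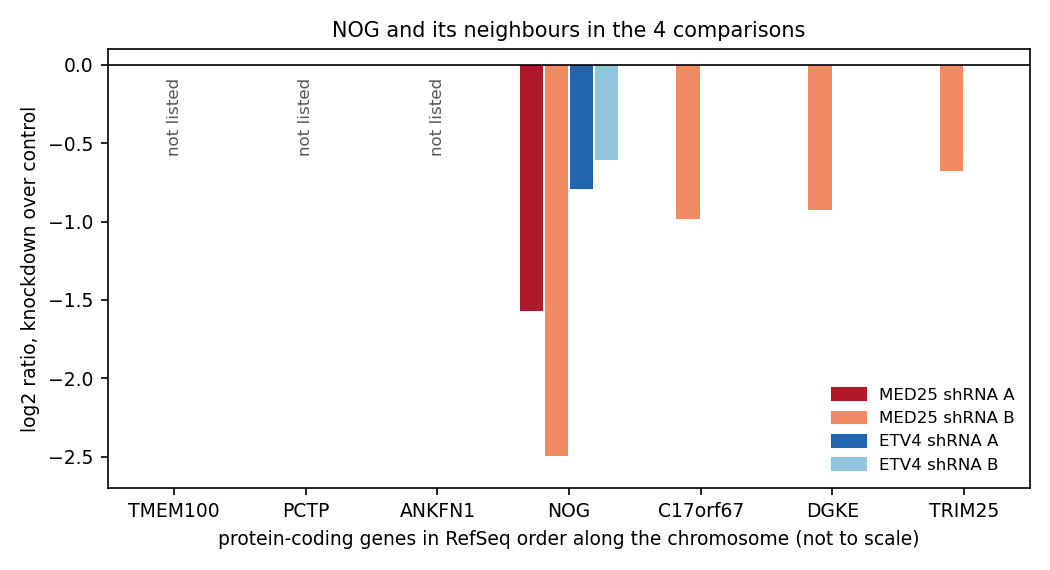
Bars give the log2 ratio of knockdown over control for NOG and the 3 protein-coding RefSeq genes on each side, in gene order and not to scale, with colours for the 4 comparisons. NOG has a bar for every comparison, while C17orf67, DGKE and TRIM25 have one only for MED25 shRNA B, at −0.99, −0.93 and −0.67.

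The bases upstream of ID2 and INHBA are shown because ETV4, like other ETS factors, binds DNA around a GGAA core. INHBA was listed with both ETV4 shRNAs and ID2 with neither. NOG, listed with both, is not shown because the promoter reference used here held no sequence for it. Both sequences are from RefSeq (GRCh38.p14, a later build than the hg19 of the reads), matched by symbol for 2 of the 3 members, and run 5′ to 3′ over the 250 bases before the RefSeq start. ID2 is at chr2:8681806-8682055 on the plus strand and INHBA at chr7:41703091-41703340 on the minus strand. Capitals mark GGAA on either strand, TTCC being the same core on the other strand.
ID2: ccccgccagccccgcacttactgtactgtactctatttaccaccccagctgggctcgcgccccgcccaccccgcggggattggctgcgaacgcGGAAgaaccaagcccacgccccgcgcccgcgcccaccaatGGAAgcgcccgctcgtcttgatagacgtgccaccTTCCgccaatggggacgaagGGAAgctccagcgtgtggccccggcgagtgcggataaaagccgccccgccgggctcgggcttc
INHBA: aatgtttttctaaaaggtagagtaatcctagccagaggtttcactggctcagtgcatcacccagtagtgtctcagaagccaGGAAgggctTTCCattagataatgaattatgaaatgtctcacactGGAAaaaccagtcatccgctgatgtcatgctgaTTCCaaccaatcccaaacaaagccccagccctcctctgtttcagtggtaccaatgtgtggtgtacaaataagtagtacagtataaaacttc

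Each window holds 4 GGAA cores. The ID2 matches begin 157, 117, 83 and 63 bases before the start and the INHBA matches 169, 160, 124 and 91 bases before it. Of all 35116 RefSeq windows of this length, 92.7% hold at least 1 GGAA and 34.3% hold at least 4, so this number is common. The longer ETS motif CGGAAGT, which contains the core, was in neither window and is in 5.69% of all. Neither window had the AP-1 motif TGANTCA (6.57% of all), the BMP SMAD motif GGCGCC (16.4%) or the SMAD box GTCTG (38.0%). An E-box, CANNTG, was found once for ID2 and not for INHBA, and is in 61.8% of all windows. Motifs were searched on both strands. The windows differ in base composition, with 69.2% G and C for ID2 and 42.8% for INHBA, against a median of 58.0%. Annotated transcripts of ID2 also start further upstream, and its window overlaps exons of those. A match here is a string of letters and was not tested as a site.

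INHBA (ENSG00000122641, chromosome 7), the activin A subunit gene, was lowered by a like amount wherever it was listed. In the authors' deposited table for MED25 shRNA A, INHBA was at −0.93, or 52.3% of control, number 240 of 786. The authors' deposited table for ETV4 shRNA A had it at −0.78, or 58.2% of control, number 258 of 495. With ETV4 shRNA B it was at −0.83 in the authors' deposited table, or 56.3% of control, number 42 of 98. These 3 ratios span 0.15 on the log2 scale. In the same 3 tables NOG ran from −1.57 to −0.61. The span of 1.89 for all 4 ratios of NOG includes MED25 shRNA B, where INHBA has no value that could widen its span. INHBA was not listed with MED25 shRNA B, where MED25 and NOG had their lower values. With ETV4 shRNA A the ratios of INHBA and NOG nearly coincided, and with ETV4 shRNA B INHBA was lower than NOG. By the authors' score, INHBA ranked number 201 of 786 with MED25 shRNA A, and numbers 112 of 495 and 26 of 98 with shRNAs A and B against ETV4.

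Of the 9 other genes listed in exactly the same 3 tables as INHBA, the nearest in ratio was CHST2, a sulfotransferase gene (distance 0.24). C4orf32 (0.25), RP11-736K20.5 (0.29), the ABC transporter gene ABCA8 (0.76) and the complement inhibitor gene CD55 (0.81) followed. In the annotation INHBA overlaps the antisense gene INHBA-AS1 on the opposite strand, which was not listed. Without strand in the counting, reads of the pair could not be separated, so the INHBA values are uncertain to that extent. Of the 3 RefSeq genes on each side of INHBA, most of them noncoding, 0 were listed in any table. When protein-coding genes alone were ordered, 0 of the 3 on each side were listed.

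ID2 (ENSG00000115738, chromosome 2), the BMP target, was listed with both MED25 shRNAs at nearly the same ratio. The authors' deposited table for MED25 shRNA A had ID2 at −1.09, or 47.0% of control, number 142 of 786. The authors' deposited table for MED25 shRNA B had ID2 at −1.03, or 49.0% of control, number 70 of 374. ID2 thus differed by 0.06 on the log2 scale between shRNA B, which left 30.5% of MED25 in the authors' deposited table, and shRNA A, which left 51.6%. It stood higher by score than by decrease, at number 29 of 786 with MED25 shRNA A and number 28 of 374 with MED25 shRNA B. NOG was placed the other way, at number 53 by score with MED25 shRNA A and number 6 with MED25 shRNA B. ID2 was listed in neither ETV4 table. The difference between the targets was not tested, since an unlisted gene has no value and target cannot be told apart from virus and control.

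Of the 124 other genes listed with both MED25 shRNAs and no ETV4 shRNA, the nearest to ID2 were AC006372.6 (distance 0.08), the deubiquitinase gene STAMBPL1 (0.09), AP002478.2 (0.11), AC005682.5 (0.15) and the collagen gene COL8A2 (0.16). The paralogues ID1, ID3 and ID4 were listed in 0 of the 4 tables. ID2 overlaps the antisense gene ID2-AS1 in the annotation, which was not listed, and the same limit on strand holds. None of the 3 RefSeq genes on each side of ID2, which include noncoding genes and pseudogenes, was listed. Of the 3 protein-coding genes on each side, 0 were listed.

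**Figure D3:**
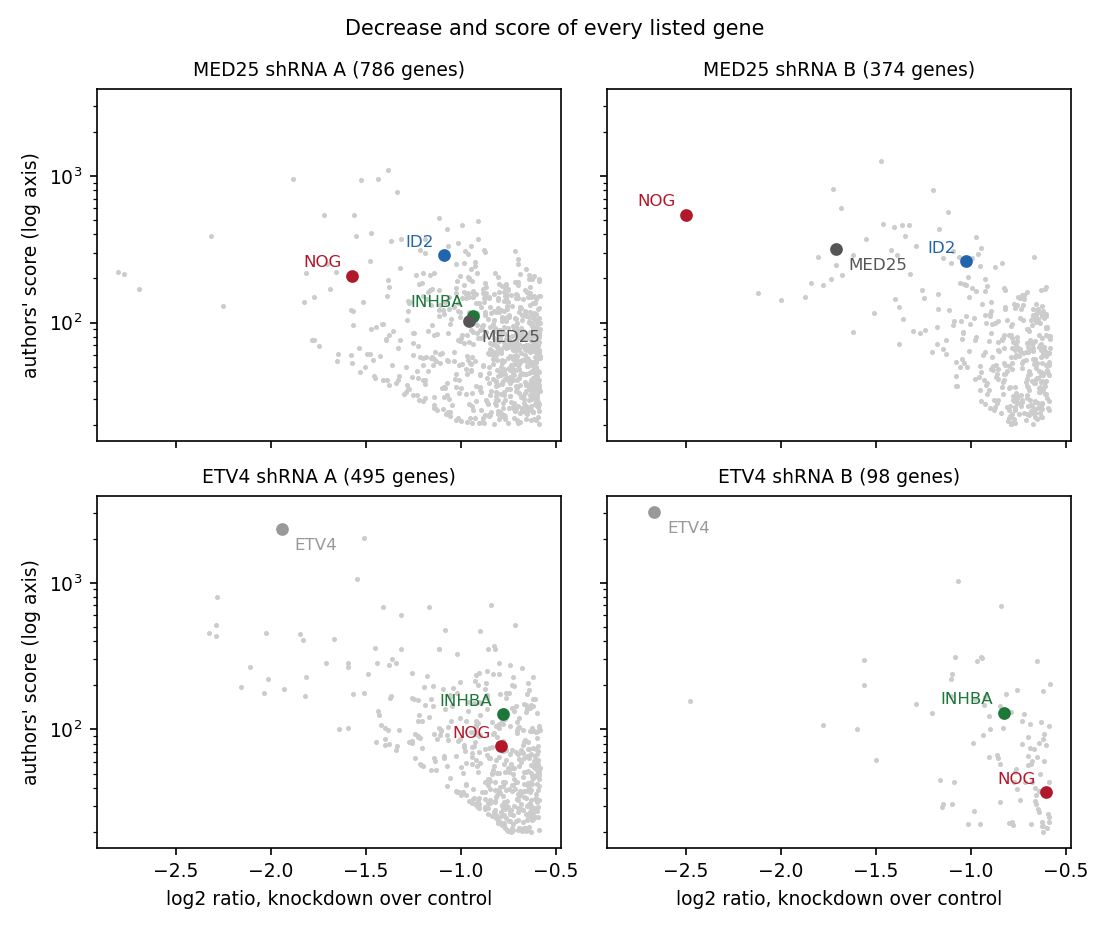
Each grey point is a gene of the authors' deposited table named above the panel, by log2 ratio of knockdown over control and by the authors' score on a log axis; coloured points mark the members and the targeted gene. NOG is the leftmost point with MED25 shRNA B at −2.50, and ID2, at −1.09 and −1.03, is number 29 and number 28 by score in the MED25 panels.

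With both MED25 shRNAs, NOG and ID2 were lowered at least 2-fold. That was 2 of the 3 members listed with MED25 shRNA A, where 24.0% of all listed genes were lowered as much, and 2 of the 2 members listed with MED25 shRNA B, where 20.1% were. With the ETV4 shRNAs 0 of the 2 listed members reached 2-fold, where 23.2% of the genes listed with ETV4 shRNA A and 20.4% of those with ETV4 shRNA B did. These counts describe members chosen by listing and were not tested.

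Other genes of the pathways were taken from 10 lists holding 130 genes, of which 18 were listed in at least 1 table, the 3 members included. That is 13.8%, or 11.8% (15 of 127) without the members. The 1400 genes of the union make a similar 11.7% of the assumed 12000, but 17.5% of 8000 and 7.00% of 20000. Whether the lists lie below, near or above all genes thus depends on the number assumed. Genes that BMPs, TGF-beta or activin induce made up 10 of the 12 list genes with MED25 shRNA A, 8 of the 8 with MED25 shRNA B, 4 of the 9 with ETV4 shRNA A and 3 of the 4 with ETV4 shRNA B, and such genes are 36 of the 130 (27.7%). NOG and ID2, which were chosen by their listing, are counted among these induced genes. The lists were also drawn up with earlier results of these data known. The counts are therefore a description, and their difference from 27.7% was not tested. Counts for each induced list without NOG and ID2 are given below. BMP3, INHBE, BMPR1B, TGFBR2 and CTGF were listed with ETV4 shRNA A and no other shRNA. Numbers listed were 12 of 130 with MED25 shRNA A (9.23%), 8 with MED25 shRNA B (6.15%), and, against ETV4, 9 with shRNA A (6.92%) and 4 with shRNA B. Without the members these were 9, 6, 7 and 2 of 127, or 7.09%, 4.72%, 5.51% and 1.57%. The matching shares of all genes depend on the assumed number that could be listed. For MED25 shRNA A that share was 9.82% of 8000 or 3.93% of 20000, on either side of the share of the lists. For ETV4 shRNA A it was 6.19% of 8000, above the lists without the members. For MED25 shRNA B it was at most 4.67% and for ETV4 shRNA B at most 1.23%, each of 8000, below the lists with or without the members, and for MED25 shRNA B without them only just. The listed genes had a median of −1.13 with MED25 shRNA A, against −0.78 for all genes of that table, and −1.17 with MED25 shRNA B, against −0.77. For ETV4 the medians were −0.79 for the lists and −0.79 for all genes with shRNA A, and −0.76 and −0.77 with shRNA B. All these medians of the lists include the members listed, which were chosen by their decreases. Medians without the members were not computed, and no difference between medians was tested.

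Among ligands, BMP3, a member of the BMP family that antagonises other BMPs, was at −0.94 in the authors' deposited table for ETV4 shRNA A and was the 1 gene listed of 20 BMP and GDF ligands. INHBE, which encodes the inhibin beta E subunit, was at −0.84 in the same authors' deposited table, and with INHBA made 2 of 8 activin, inhibin and nodal ligands. The lists of TGF-beta ligands and latency proteins (9 genes), SMAD proteins (8), intracellular SMAD regulators (15) and E proteins that pair with ID proteins (3) had 0 members in any table. Of 23 extracellular antagonists and modulators, which include chordin, gremlins and follistatin, NOG was the 1 listed. For scale, genes in at least 1 table made up 11.7% of the assumed 12000, 17.5% of 8000 or 7.00% of 20000. At such shares lists this short can hold few listed genes or 0, so nothing is read from these counts.

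Of 19 receptors and co-receptors, 3 were listed, each in 1 table. The share of all genes in at least 1 table was 11.7% of the assumed 12000 or 17.5% of 8000. This count was not tested. The type I BMP receptor gene BMPR1B was at −0.78 and the type II TGF-beta receptor gene TGFBR2 at −0.61 in the authors' deposited table for ETV4 shRNA A. The co-receptor betaglycan (TGFBR3), which binds inhibins, was at −0.87 in the authors' deposited table for MED25 shRNA A.

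Of 18 BMP-induced genes, which include NOG and ID2, 4 were listed with MED25 shRNA A, 3 with MED25 shRNA B, and 2 with each ETV4 shRNA. Without NOG and ID2, which were chosen by their listing, these were 2 of 16 (12.5%) with MED25 shRNA A and 1 of 16 (6.25%) with each other shRNA. The tables held 6.55% and 3.12% of the assumed 12000 genes with MED25 shRNAs A and B, and 4.12% and 0.817% with ETV4 shRNAs A and B. Of 8000 genes these shares would be 9.82%, 4.67%, 6.19% and 1.23%, in the same order. Where 1 of 16 was listed, the gene was HEY1 each time, and the differences were not tested. HEY1, a bHLH repressor that both BMP and Notch signalling induce, was with NOG the other gene of the list in all 4 tables. HEY1 was at 39.1% and 41.5% of control with MED25 shRNAs A and B, and at 58.0% and 52.4% with ETV4 shRNAs A and B, in the authors' deposited tables. The osteoblast factor gene RUNX2 was at −1.06 in the authors' deposited table for MED25 shRNA A. The inhibitory SMAD genes SMAD6 and SMAD7, which are in this list as feedback targets, were not listed.

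Of 19 genes that TGF-beta or activin induces, 6 were listed with MED25 shRNA A (31.6%) and 5 with MED25 shRNA B (26.3%), and, against ETV4, 2 with shRNA A (10.5%) and 1 with shRNA B (5.26%). Beside these stand 6.55%, 3.12%, 4.12% and 0.817% of the assumed 12000 genes, in the same order. Of 8000 genes the shares would be 9.82%, 4.67%, 6.19% and 1.23%. The differences were not tested. Those listed with both MED25 shRNAs were 4 genes, FN1, KLF10, SNAI1 and BHLHE40. KLF10, an early TGF-beta response repressor, was at −0.80 with MED25 shRNA A and −1.02 with MED25 shRNA B in the authors' deposited tables. SNAI1, a repressor of epithelial genes, was at −1.28 and BHLHE40, a bHLH repressor, at −1.21 in the authors' deposited table for MED25 shRNA A, and the same genes were at −1.08 and −1.35 in that for MED25 shRNA B. Percentages of control for FN1, the fibronectin gene, in the authors' deposited tables were 44.1% with MED25 shRNA A, 32.5% with MED25 shRNA B and 62.0% with the B hairpin against ETV4. The AP-1 gene JUNB was at −0.67 in the authors' deposited table for MED25 shRNA B. SNAI2 was at −0.66 in the authors' deposited table for MED25 shRNA A. The cyclin-dependent kinase inhibitor gene CDKN2B was listed with the A shRNA of each target, at 36.3% of control for MED25 and 43.0% for ETV4 in the authors' deposited tables. CTGF, a matricellular protein gene, was at −0.77 in the authors' deposited table for ETV4 shRNA A. Many of these genes also answer to other signals, and the lists were drawn up with earlier results of these tables known.

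**Figure D4:**
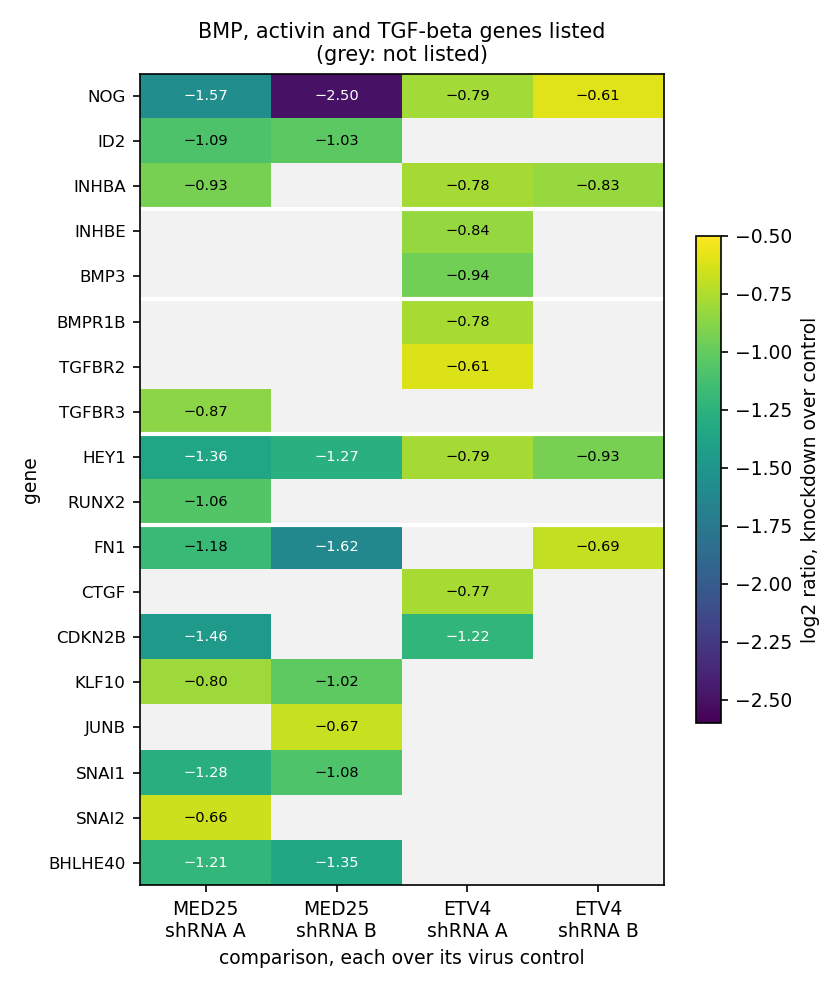
Rows are the 18 list genes found in at least 1 of the 4 authors' deposited tables, grouped as members, ligands, receptors, BMP-induced and TGF-beta or activin induced genes; colour and number give the log2 ratio of knockdown over control, and grey means not listed. NOG and HEY1 have a value in every column, and the lowest value is NOG with MED25 shRNA B at −2.50.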

How the data were processed

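RNA was sequenced from PC3 cells in 17 libraries, and the submitters' processing notes name Novoalign 3.08.02 and the build hg19. How reads were counted, annotated, scaled and tested was not given in the sources used here. The 4 tables are the authors' own comparisons. Per the file headers, the authors deposited a log2 ratio and an adjusted p per gene, and the latter is treated as a score because its values begin just above 20. It served only to rank genes.

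Ratios of the MED25 tables, where the control number stands first, were turned round. Ranks, medians, counts and distances were computed with Python 3.11.15, pandas 2.3.3 and numpy 2.4.6, figures with matplotlib 3.10.9. Gene order came from RefSeq and GENCODE release 29, and 130 of 130 list genes matched an Ensembl identifier. A further gene of the lists is not reported here and was left out of their counts. Motif and nearest-gene searches were tested on simulated data. The genes named are the members, the targets, listed genes of the lists, the 5 nearest genes per member and the neighbours. The members and lists were chosen with earlier results of these data known. No test was run.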

Additional observations from a re-analysis of the deposited data

How the results depend on the processing

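Requiring a decrease of at least 2-fold left 0 members with either ETV4 shRNA, against 2 as listed, and left 1 list gene for the A hairpin against ETV4 and 0 for the B hairpin. With a score of at least 50, 1 member remained with ETV4 shRNA B, which was INHBA. Leaving out NOG, ID2 and INHBA left 2 list genes with ETV4 shRNA B, against 4. The other counts of members and list genes stayed within 1.5 times under these settings and when matched by Ensembl identifier, which for the lists was chosen after seeing the data, as was ordering protein-coding genes alone. By largest difference in place of Euclidean distance, 4 of the 5 nearest genes of NOG and of INHBA and 5 of those of ID2 were shared. With score in place of decrease, NOG with MED25 shRNA B ranked number 6 in place of 1. No paired analysis was possible because the tables hold no values per library, and leaving out replicates was not possible for the same reason.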
